A study of Mus musculus with 3 samples.

Results

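The replication-dependent histone genes of the mouse were described here by the chromatin marks that lie on them in embryonic stem cells. The members were all protein-coding genes of the GENCODE M21 annotation on the genome build mm10 whose symbols start with Hist1h, Hist2h, Hist3h or Hist4h. This gave 67 genes among 21938 protein-coding genes. They encode 6 linker histones, 18 H2A, 18 H2B, 12 H3 and 13 H4 proteins. Chromosome 13 carries 54 of them, in a proximal part of 23 genes over 328 kb and a distal part of 31 genes over 404 kb, called Hist1. The authors describe 3 subclusters in Hist1. Here the proximal part includes a stretch without members between Hist1h2br and Hist1h2ah, shorter than the 200 kb gap used to split loci. The Hist2 locus on chromosome 3 holds 10 genes within 50.3 kb, the Hist3 locus on chromosome 11 holds 2, and Hist4h4 lies alone on chromosome 6.

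The cells were F123, a male mouse embryonic stem cell line from an F1 cross of S129/Jae and Cast, grown on feeder fibroblasts and then passaged without feeders before harvest. Chromatin immunoprecipitation with sequencing (ChIP-seq) was done for H3K27me3, a repressive mark that Polycomb complexes place on histone H3, and for the forms of RNA polymerase II that carry a phosphate at serine 5 of their C-terminal repeats (Pol2-S5p) or at serine 7 (Pol2-S7p). All cells were of this line, with no treatment and no second genotype, and there was 1 library per mark. The 3 lists hold 17342, 29222 and 22320 enriched regions, each with a width and a score from the peak finder.

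With 1 library per mark, no difference between genes or types could be tested against replicates. The 95% intervals given are exact binomial (Clopper-Pearson) and cover counting error only. Neighbouring genes often lie in the same region, so genes are not independent and these intervals are too narrow. The region lists carry no read depth, which was not used here. Regions called on both parental copies and in all cells are pooled in 1 list. Whether 2 marks at a gene sit on the same chromosome copy or in the same cell cannot be told apart. Of 8 embryonic stem cell marker genes, Pou5f1, Nanog, Esrrb, Zfp42, Tdgf1 and Dppa5a had both polymerase forms without H3K27me3 at their start, and Sox2 and Klf4 had all 3 marks. None of 8 fibroblast marker genes had the polymerase forms without H3K27me3. Col1a1 and Col1a2 had H3K27me3 only, and Fbn1 had all 3 marks.

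Replication-dependent histone genes supply the proteins that wrap newly made DNA, so their transcription is tied to the S phase of the cell cycle. H2A, H2B, H3 and H4 form the core of the nucleosome, and linker histones bind the DNA where it enters and leaves that core. Their genes mostly lack introns, and their messages end in a conserved stem-loop in place of a poly(A) tail. In dividing cells many copies are transcribed side by side in a dedicated nuclear body.

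All 67 genes carried RNA polymerase II. The 2 kb around each transcription start site (the TSS window) were touched by a Pol2-S7p region at 67 of 67 genes (interval 94.6 to 100%) and by a Pol2-S5p region at 66 of 67 (98.5%, 92.0 to 99.96%). Over all protein-coding genes the shares were 60.4% for Pol2-S7p and 69.9% for Pol2-S5p. H3K27me3 touched 21 of 67 TSS windows (31.3%, 20.6 to 43.8%), beside 37.7% of all genes. In the gene body the counts were 67 for each polymerase form and 22 for H3K27me3, beside 65.3% (Pol2-S7p), 73.5% (Pol2-S5p) and 43% (H3K27me3) of all genes. In the 2 kb window at the annotated gene end they were 64, 61 and 19, beside 45.4%, 49.6% and 23.4%. Most of these genes are shorter than the window, so start and end windows overlap and are not separate readings.

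Promoter states were set from the marks in the TSS window. Active, with both polymerase forms and no H3K27me3, held 45 genes (67.2%, 54.6 to 78.2%), beside 35.9% of all genes. PRCa, with all 3 marks, held 21 (31.3%), beside 23.9%. Without regions over 10 kb of all 3 marks PRCa held 12 of 67 (17.9%). Hist1h1d alone had Pol2-S7p only, a state of 0.406% of all genes. No histone gene was Inactive (23.5% of all genes), had H3K27me3 only (6.02%) or was PRCr, with H3K27me3 and Pol2-S5p but no Pol2-S7p (7.66%). A count of 0 of 67 allows a share of up to 5.36% by the exact interval.

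**Figure D1:**
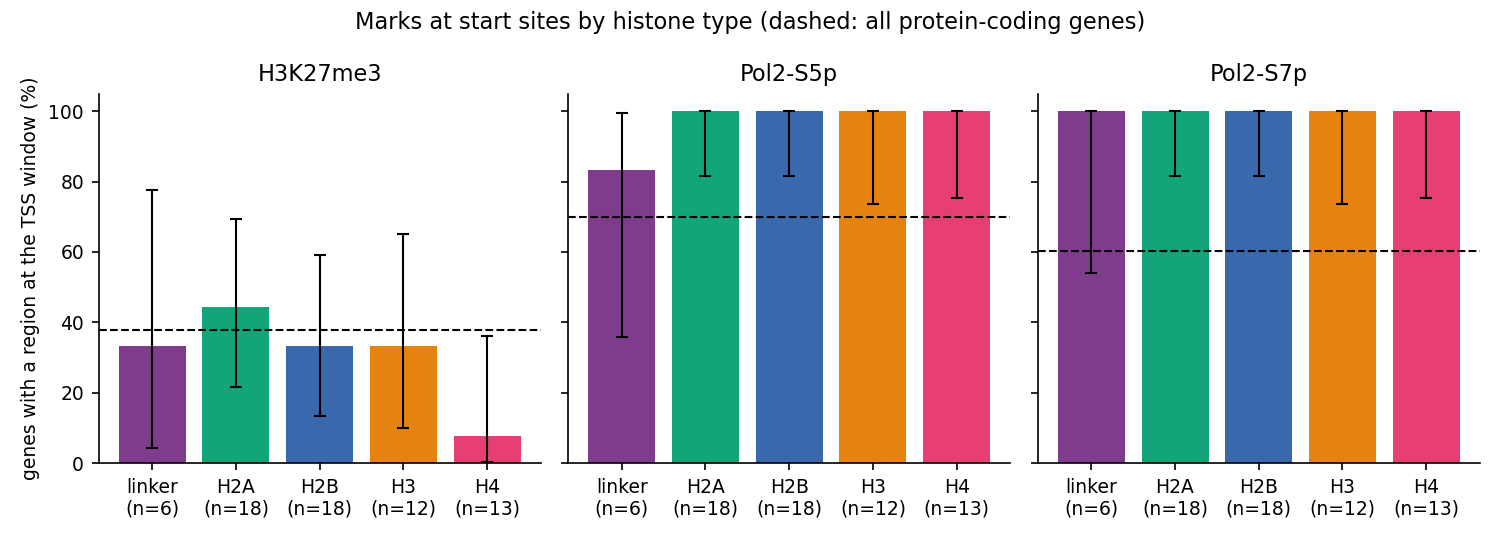
Percent of genes with a region of each mark at the TSS window, by histone type (bars, with exact 95% binomial intervals for counting error), with the share of all protein-coding genes as a dashed line. Both polymerase forms reach 100% in all core types, and H3K27me3 is at 44.4% in H2A and 7.69% in H4.

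The counts differed most between types for H3K27me3, and no difference was tested. It touched the TSS window of 8 of 18 H2A genes (44.4%, 21.5 to 69.2%), 6 of 18 H2B genes (33.3%, 13.3 to 59.0%), 4 of 12 H3 genes (33.3%, 9.92 to 65.1%), 2 of 6 linker genes (33.3%, 4.33 to 77.7%) and 1 of 13 H4 genes (7.69%, 0.195 to 36.0%). Over all protein-coding genes the share was 37.7%, inside the intervals of every type but H4. The single H4 gene with the mark was Hist4h4, which stands apart from the other histone genes on chromosome 6. Within Hist1 and Hist2, H3K27me3 was at 0 of 12 H4 genes (up to 26.5%) and at 18 of 52 genes of the other types (34.6%, 22.0 to 49.1%). Those 18 genes lay in 9 separate regions, and the intervals of the H4 genes and the others overlap.

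By locus, H3K27me3 was at the TSS of 7 of 23 genes in the proximal part of Hist1 (30.4%, 13.2 to 52.9%), 6 of 31 in the distal part (19.4%, 7.45 to 37.5%) and 5 of 10 in Hist2 (50%, 18.7 to 81.3%). Both Hist3 genes and Hist4h4 had it. The intervals of the 3 larger loci overlap. Over all protein-coding genes the share was 37.7%, inside the intervals of proximal Hist1 and Hist2 and just above that of distal Hist1. Regions over Hist2 are long and dense, with Pol2-S5p over 65.8% and Pol2-S7p over 71.4% of the locus. In Hist1 the polymerase regions sit as islands around the genes, over 18.6% and 14.5% of the proximal part and 13.9% and 16.7% of the distal part. The 1487 kb between these parts, which hold no member, were covered by Pol2-S5p at 2.20% and by Pol2-S7p at 2.58%.

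**Figure D2:**
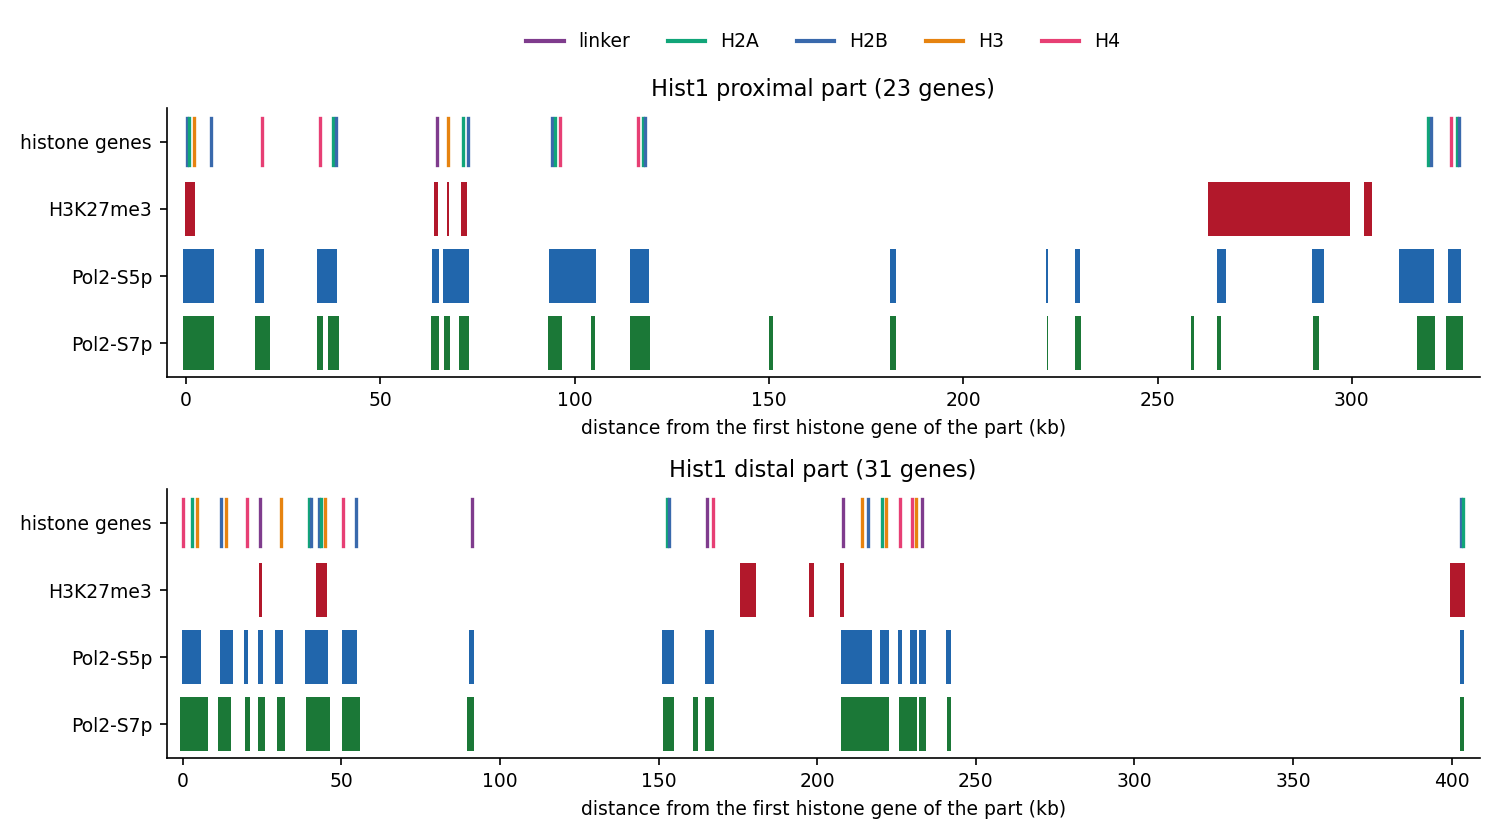
The proximal and distal parts of Hist1, with distance from the first histone gene of each part in kb on the horizontal axis, histone genes as ticks coloured by type, and regions of the 3 marks as bars. Polymerase islands lie under every gene tick, and of the 54 genes 13 have H3K27me3 in the TSS window.

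H3K27me3 touched the bodies of 22 histone genes through 12 regions. Of these, 9 were narrow, between 600 bp and 4.8 kb, and 3 were wider than 10 kb. The widest, chr3:96181000-96222399 (41400 bp, score 6.90), reached into Hist2 from the side and covered Hist2h2ab, Hist2h2ac and 48.9% of the body of Hist2h2be. The region over Hist4h4 was 28000 bp (score 5.67), and that over Hist3h2ba and Hist3h2a was 28200 bp (score 12.5). These 6 genes had the mark across the whole TSS window.

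The 9 narrow regions all scored above the median of the H3K27me3 list (8.23), from 9.89 to 15.2. None reached its top 1% (31.9 or more), where 0.679% of all protein-coding genes have a region between TSS and end windows. In the proximal part of Hist1, a region of 2400 bp (score 12.8) ran over Hist1h2bl, Hist1h2ai and Hist1h3h. A region of 1000 bp (score 15.2) lay on the linker gene Hist1h1b, one of 600 bp (13.9) on Hist1h3i, and one of 1400 bp (10.7) on Hist1h2an and Hist1h2bp. In the distal part, 3400 bp (10.6) covered Hist1h2bf, Hist1h2ad and Hist1h3d. A region of 1400 bp (9.89) lay at the linker gene Hist1h1c, and 1000 bp (13.4) lay in the body of Hist1h1d. The longest of the 9, 4800 bp (13.5), lay at the far edge over Hist1h2ba and Hist1h2aa. In Hist2, a region of 2200 bp (14.6) ran over Hist2h3c2 and Hist2h2aa2.

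Most narrow H3K27me3 regions lay inside strong polymerase regions. Of the 9, 7 were covered in full by Pol2-S5p and by Pol2-S7p. The exceptions were the region at Hist1h1c, covered at 71.4% by each form, and that at Hist1h2ba and Hist1h2aa, covered at 29.2%. All 67 histone genes had both forms in the body, and full cover was not counted over all H3K27me3 regions. The count of 7 is therefore no trait of these regions. A Pol2-S7p region of the top 1% of its list touched 7 of the 9 narrow regions. These regions were taken for lying on histone genes, of which 53 of 67 had such a Pol2-S7p region, so the count adds nothing to that. No library of input DNA was used here.

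The 2 testis members at the far edge, Hist1h2ba and Hist1h2aa, are known for their use in the male germ line, as is the linker gene Hist1h1t. Hist1h2ba and Hist1h2aa shared regions of 1400 bp for both polymerase forms, with scores of 30.3 (Pol2-S5p) and 40.9 (Pol2-S7p). These scores were low among histone genes, but above 85.6% of the Pol2-S5p list and 92.5% of the Pol2-S7p list. H3K27me3 lay over 100% and 86.9% of the TSS windows of Hist1h2ba and Hist1h2aa. Hist1h1t had no H3K27me3 and was Active, with scores of 31.1 and 55.8 in regions shared with Hist1h4c. All 3 had polymerase scores below the median of the 67 genes, 67.0 for Pol2-S5p and 98.8 for Pol2-S7p.

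**Figure D3:**
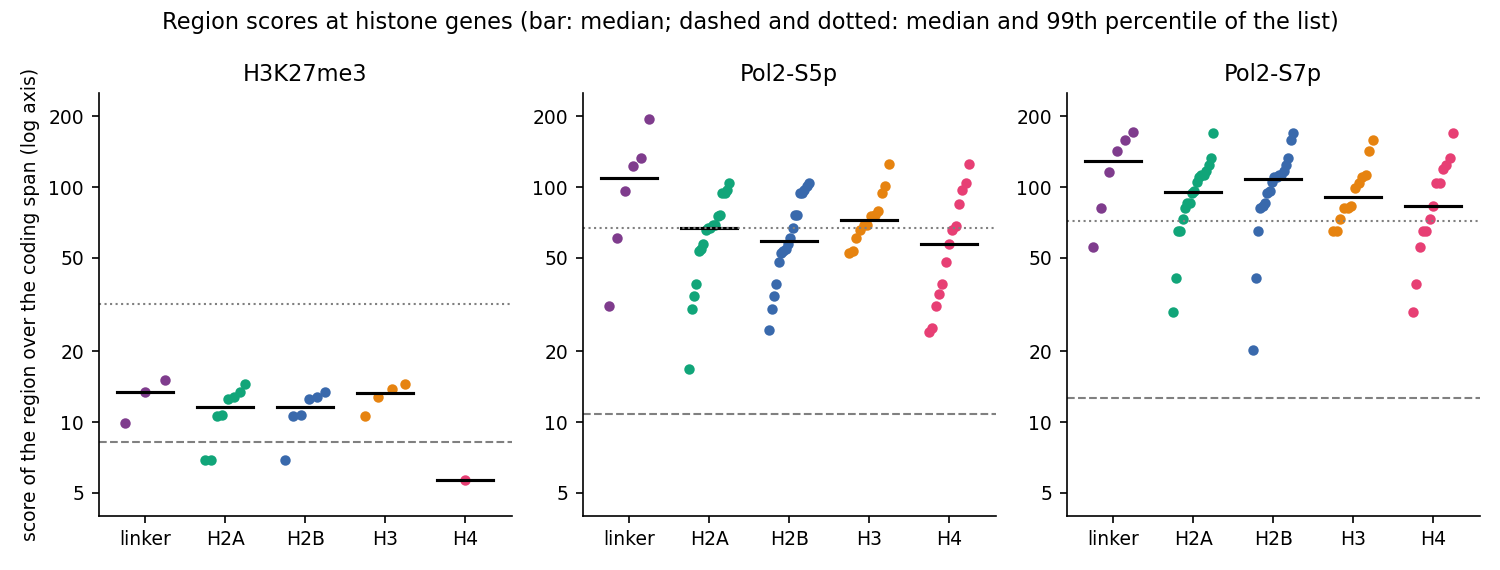
Score of the highest-scoring region over each coding span (vertical log axis, peak finder score), by histone type and mark, with points for genes, a bar for the median and lines for the median and 99th percentile of each list. Polymerase points sit above the list median throughout, and H3K27me3 points stay below the 99th percentile of 31.8.

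The polymerase regions of histone genes ranked near the top of their lists. A Pol2-S7p region of the top 1% (71.6 or more) touched the span from TSS window to end window of 53 of 67 histone genes, beside 1.03% of all protein-coding genes. For Pol2-S5p (67.2 or more) the count was 33 of 67, again beside 1.03%. These genes drew on 23 and 15 regions, since 23 of the 32 regions of each form touch several members, up to 5 in a row. By type, Pol2-S7p of the top 1% was at 16 of 18 H2B, 14 of 18 H2A, 10 of 12 H3, 8 of 13 H4 and 5 of 6 linker genes.

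The linker type had the highest median scores, with a wide spread between its genes. Hist1h1d had a Pol2-S7p region of score 172, the first of its list, and a Pol2-S5p region of 196, the third. Hist1h1b had 159 (Pol2-S7p) and 122.7 (Pol2-S5p), and Hist1h1e 143 and 133. Hist1h1a, with 116 (Pol2-S7p) and 96.6 (Pol2-S5p), and Hist1h1c, with 81.6 and 61.0, came next, and Hist1h1t was lowest with 55.8 and 31.1. The medians of the 6 linker genes were 129.6 for Pol2-S7p and 109.7 for Pol2-S5p. Over H2A genes they were 95.3 and 67.0, over H2B 108 and 59.0, over H3 90.8 and 72.1, and over H4 82.8 and 57.1. The ranges of the types overlap, for example from 31.1 to 196 in linker and from 24.1 to 126 in H4 for Pol2-S5p. Pol2-S5p regions were 1600 bp wide at Hist1h1d and Hist1h1e, 1800 bp at Hist1h1b and 2000 bp at Hist1h1a. They were 2800 bp wide at Hist1h1t and 9800 bp at Hist1h1c. Whether scores relate to region width was not tested.

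Among core histone genes, Hist1h3a and Hist1h4a shared the top Pol2-S5p region (126). Hist1h2bq, Hist1h2ao and Hist1h4m shared the second Pol2-S7p region of the whole list (170.3), and Hist2h3b and Hist2h2bb the fifth (158). Hist1h3i ranked 10 (142). The lowest Pol2-S7p scores were those of Hist3h2ba (20.3), Hist4h4 (29.4), Hist3h2a (29.5) and Hist1h4j (38.5). All 3 genes outside Hist1 and Hist2 were thus at the low end. Scores scale differently between the 2 lists, so ranks were compared. By percentile of its own list, the top Pol2-S7p region in the gene body ranked above the top Pol2-S5p region at 57 of 67 genes, beside 40.7% of the 14152 protein-coding genes with both. Over the coding span the counts were 17 of 18 H2B, 15 of 18 H2A, 12 of 13 H4, 8 of 12 H3 and 5 of 6 linker genes. Most of these percentiles lie near the top of the scale, with medians of 98.99 (Pol2-S5p) and 99.83 (Pol2-S7p).

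Active core genes carried these scores without H3K27me3. Among the H4 genes, which share 1 protein, the Pol2-S7p score was 38.5 at Hist1h4j, 55.8 at Hist1h4c, 65.2 at Hist1h4d, 73.4 at Hist1h4h, 82.8 at Hist1h4f, 103.7 at Hist1h4a and Hist1h4b, 119 at Hist1h4k, 124.6 at Hist1h4i, 133 at Hist1h4n and 170.3 at Hist1h4m. Hist2h4 had 64.9. Among Active H3 genes it was 64.9 at Hist2h3c1, 73.4 at Hist1h3g, 81.6 at Hist1h3b and Hist1h3c, 82.7 at Hist1h3f, 98.8 at Hist1h3e, 103.7 at Hist1h3a and 157.8 at Hist2h3b. H3 and H4 genes thus overlapped in score.

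Active H2A and H2B genes carried a like range. The pair Hist1h2ah and Hist1h2bk had a Pol2-S7p score of 94.5, Hist1h2ac and Hist1h2bc 96.1, Hist1h2ae and Hist1h2bg 112.6, Hist1h2ak and Hist1h2bn 117, Hist1h2ag and Hist1h2bj 124.6, Hist1h2ap and Hist1h2br 133, and Hist1h2bq and Hist1h2ao 170.3. Of the genes outside such pairs, Hist1h2af had 73.4, Hist1h2ab and Hist1h2bb 81.6, Hist1h2bh 82.7, Hist1h2bm 110.8 and Hist2h2bb 157.8. Hist1h2be had 65.2. Hist2h2aa1 had 64.9, in the region of 31200 bp that it shares with 4 other Hist2 genes.

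Regions closed around the genes. The coding span, from start to stop codon, lay fully under Pol2-S5p and under Pol2-S7p at 66 of 67 genes. The exception, Hist1h2bp, has an annotated intron and was covered at 70.0% by each. Under H3K27me3, 20 coding spans were covered in full. Polymerase regions at histone genes had median widths of 3700 bp (Pol2-S5p) and 3400 bp (Pol2-S7p). Most coding spans are shorter than that, so full cover adds little to touch. On the side of the start codon, 21 genes had no other member between codon and region edge for both forms. The Pol2-S5p region ended a median of 290 bp upstream of the start codon and Pol2-S7p 756 bp upstream, with Pol2-S7p reaching further in 12, equal in 7 and less far in 2. Downstream of the stop codon, over 36 genes, the medians were 802 bp and 1002 bp, with Pol2-S7p further in 16, equal in 9 and Pol2-S5p further in 11. Edges are on a grid of 200 bp. Full cover and these distances were measured at histone genes only, so no value over all genes stands beside them.

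Over the 6 linker genes the Pol2-S5p region ended between 66 bp and 517 bp before the start codon. At 1000 bp upstream, 0 of 6 were under either form, while 13 of 18 H2A, 15 of 18 H2B, 11 of 12 H3 and 8 of 13 H4 genes were under Pol2-S5p. Of the 18 H2A and 18 H2B genes, 12 of each lie back to back in pairs, with the partner gene upstream. No H3 gene lies in such a pair, for which start codons were at most 1 kb apart. At wider spacing, Hist1h3f lies back to back with Hist1h2bh and Hist1h3c with Hist1h2bb. Each time both genes lie in the same Pol2-S5p region. Whether the pairing relates to this upstream cover was not tested. At 1000 bp downstream, all 6 linker genes were under Pol2-S5p, and 10 of 18 H2B genes.

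**Figure D4:**
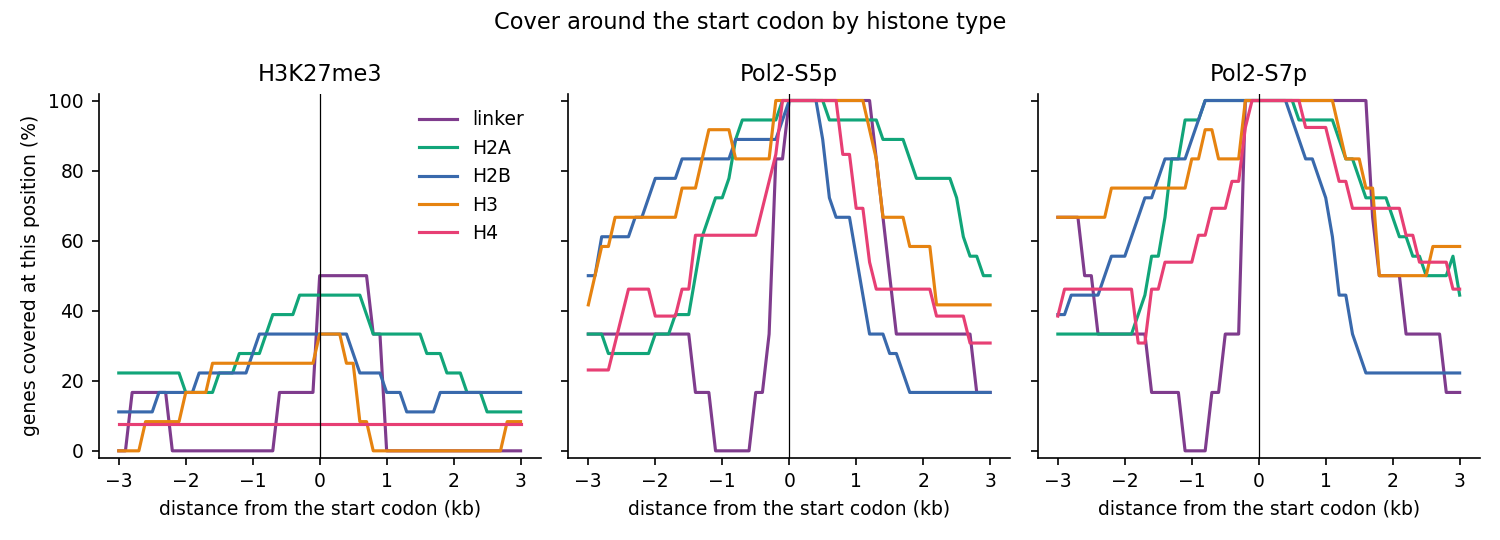
Percent of genes of each type covered by a region at each distance from the start codon (horizontal axis in kb, upstream negative, steps of 100 bp; vertical axis in percent of genes), for the 3 marks. Polymerase curves meet at 100% at the start codon, and the linker curves fall to 0 of 6 at 1000 bp upstream.

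Of the 6 genes without Pol2-S5p at the gene end window, which have long annotated records, Hist2h2be, Hist1h2bq and Hist1h2br also lacked Pol2-S7p there. Pol2-S5p was not called there at 5 H2B genes, Hist2h2be, Hist1h2bq, Hist1h2br, Hist1h2bh and Hist1h2bc, and at Hist4h4. The annotated records of these 6 genes run from 1679 bp (Hist1h2bh) to 8710 bp (Hist1h2bc), while their stop codons lie within a polymerase region. Hist1h2be (37455 bp) and Hist1h1d (7425 bp) also have long records, but both forms were at their gene end windows. When windows were centred on the stop codon, all 67 had both forms.

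The annotated start of Hist1h1d is also remote. It lies 1828 bp upstream of the start codon, and the RefSeq start lies 1770 bp downstream of that TSS. The TSS window held Pol2-S7p over 6.9% of its length, from a region that also lies over Hist1h4f, and no Pol2-S5p. The coding span at chr13:23555090-23555755 lay under both top regions and under the H3K27me3 region of 1000 bp (score 13.4). With a window on the start codon, Hist1h1d held all 3 marks. Hist1h2be has an annotated TSS 35168 bp from its start codon, next to Hist1h1e, and its TSS window overlapped the regions of Hist1h1e. Its coding span had scores of 48.2 (Pol2-S5p) and 65.2 (Pol2-S7p), shared with Hist1h4d, and no H3K27me3.

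H2A and H2B genes form 12 divergent pairs with start codons 278 to 334 bp apart (median 299). In all 12, both genes lay in the same Pol2-S5p region and in the same Pol2-S7p region. H3K27me3 lay in 1 region over both genes in 5 pairs, Hist1h2bl and Hist1h2ai, Hist1h2an and Hist1h2bp, Hist1h2bf and Hist1h2ad, Hist1h2ba and Hist1h2aa, and Hist2h2ac and Hist2h2be. In the other 7 it was at neither gene. The start codons of a pair are closer than most regions are wide, with medians of 3700 bp (Pol2-S5p), 3400 bp (Pol2-S7p) and 2300 bp (H3K27me3) over the regions at histone genes.

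The stretch between such a pair is shown for Hist1h2ae and Hist1h2bg, beside the promoters of linker, H3 and H4 genes. Each is the 150 bases before the RefSeq start, in the build GRCm38.p6, and is read on the strand of the gene. Capitals mark exact matches, on either strand, of the TATA box TATAAA, the CCAAT box CCAAT, the octamer ATTTGCAT known to be bound by Oct proteins, and the H1 box AAACACA of linker promoters. The capitals at the very start of Hist1h1d are the end of a TATA box match that begins before the printed bases. The first 3 are linker genes with the top polymerase scores. The pair Hist1h2ae and Hist1h2bg shows an octamer and a TATA box, with both sequences reading the same DNA from opposite sides. Hist1h3i has H3K27me3, and Hist1h4k and Hist1h4h have none.
Hist1h1d, chr13:23554882-23555031, plus strand: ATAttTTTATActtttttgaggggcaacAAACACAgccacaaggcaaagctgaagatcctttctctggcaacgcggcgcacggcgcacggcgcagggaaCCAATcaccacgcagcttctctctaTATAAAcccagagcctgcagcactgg
Hist1h1b, chr13:21780626-21780775, minus strand: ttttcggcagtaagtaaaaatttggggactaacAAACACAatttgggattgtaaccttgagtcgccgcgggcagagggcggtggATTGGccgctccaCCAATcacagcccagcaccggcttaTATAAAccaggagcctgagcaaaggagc
Hist1h1e, chr13:23622559-23622708, minus strand: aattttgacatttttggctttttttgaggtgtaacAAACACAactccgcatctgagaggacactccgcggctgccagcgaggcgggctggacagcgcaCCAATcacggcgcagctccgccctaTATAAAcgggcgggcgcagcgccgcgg
Hist1h2ae, chr13:23571221-23571370, minus strand: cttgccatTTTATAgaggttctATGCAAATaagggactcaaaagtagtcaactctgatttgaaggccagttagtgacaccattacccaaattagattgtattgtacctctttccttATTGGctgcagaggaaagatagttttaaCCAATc
Hist1h2bg, chr13:23571250-23571399, plus strand: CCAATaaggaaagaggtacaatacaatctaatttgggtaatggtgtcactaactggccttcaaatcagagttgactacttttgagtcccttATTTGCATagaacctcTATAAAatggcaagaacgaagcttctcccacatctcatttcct
Hist1h3i, chr13:21783398-21783547, minus strand: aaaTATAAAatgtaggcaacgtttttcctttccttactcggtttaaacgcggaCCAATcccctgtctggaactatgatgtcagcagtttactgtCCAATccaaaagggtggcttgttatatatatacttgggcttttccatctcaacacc
Hist1h4k, chr13:21750554-21750703, minus strand: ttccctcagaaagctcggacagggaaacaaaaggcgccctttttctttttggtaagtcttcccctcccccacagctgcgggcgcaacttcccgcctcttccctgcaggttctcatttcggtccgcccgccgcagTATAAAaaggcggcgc
Hist1h4h, chr13:23530894-23531043, plus strand: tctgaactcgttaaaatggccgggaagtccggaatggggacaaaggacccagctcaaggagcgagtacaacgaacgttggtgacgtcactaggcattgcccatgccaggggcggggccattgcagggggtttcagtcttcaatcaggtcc

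CCAAT and the octamer were unevenly spread over the types, and no difference was tested. RefSeq promoters of 300 bases, 250 before and 50 after the start, were found for 62 of the 67 genes. CCAAT was in 53 of 62 (85.5%), beside 37.4% of 32851 promoters of all genes. It was in all 50 promoters of linker, H2A, H2B and H3 genes and in 3 of 12 H4 promoters, those of Hist1h4a, Hist1h4c and Hist1h4d. The octamer was in 13 of 62 (20.97%, beside 1.74%), all of them H2A (7 of 18) or H2B (6 of 16). The H1 box was in 9 of 62 (14.5%, beside 7.18%), with 5 of 6 linker genes, 2 H2A and 2 H2B. TATAAA was in 35 of 62 (56.5%, beside 13.6%), in every type, from 4 of 10 H3 to 8 of 12 H4 and 4 of 6 linker promoters. By state, the octamer was in 9 of 41 Active and 4 of 20 PRCa promoters, and TATAAA in 21 of 41 and 13 of 20. Partners of a back-to-back H2A and H2B pair can share promoter bases, so the same site can count for both genes. This holds for the octamer and the TATA box of Hist1h2ae and Hist1h2bg. The promoters are therefore not independent. These are counts of letters, not of bound factors.

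The 3′ stem-loop also varied by type. A stem of 6 bases with a loop of 4 bases, in the form known for histone messages, was found within 300 bases after the stop codon of 62 genes, at 21 to 58 bp (median 30.5 bp). It was not found with these letters at Hist2h2be, Hist1h2an, Hist1h2bp, Hist1h3g and Hist1h4a. Only histone genes were searched, so no share over all genes stands beside the count of 62. At Hist1h2bp the search began after the stop codon of the spliced model used, at chr13:21789063, so its intron was not searched. Of the 6 sequences found, one was carried by 40 genes of the linker, H2A, H2B and H3 types. The 12 H4 genes with a stem-loop used 3 others, which differ in the stem and were found in no other type. One gene for each sequence is shown with 5 bases on either side, stem and loop in capitals.
Hist1h1d, chr13:23555787-23555802, plus strand: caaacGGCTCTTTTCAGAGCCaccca
Hist2h2ab, chr3:96220333-96220348, plus strand: aaaaaGGCTCTTTTAAGAGCCaccaa
Hist2h2ac, chr3:96220418-96220433, minus strand: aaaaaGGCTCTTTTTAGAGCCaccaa
Hist1h4k, chr13:21750150-21750165, minus strand: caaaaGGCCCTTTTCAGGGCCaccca
Hist2h4, chr3:96262939-96262954, minus strand: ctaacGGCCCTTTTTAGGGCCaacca
Hist1h4j, chr13:21735437-21735452, plus strand: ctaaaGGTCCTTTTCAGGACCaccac
The first, of Hist1h1d, is the common one. The second was at 9 genes and that of Hist2h2ac at 1. Those of Hist1h4k, Hist2h4 and Hist1h4j were at 8, 2 and 2 H4 genes. Hist4h4, the H4 gene with H3K27me3, had the sequence of Hist1h4k.

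Histone genes of a type are close copies, which limits where reads can be placed. The 13 H4 genes encode 1 protein through 12 different coding sequences. By the transcript models used, the 12 H3 genes encode 3 proteins, the 18 H2A genes 9, the 18 H2B genes 11 and the 6 linker genes 6. Of the H3 proteins, 1 is the model of Hist2h3c1 alone, with 181 residues beside 136 in the shortest. Of the H2B proteins, 1 is the spliced model of Hist1h2bp alone, with 138 residues beside 126 in the shortest. Both genes have 2 annotated transcripts, so these 2 proteins depend on the model chosen. As a measure, all stretches of 75 bases, the read length, were counted in the genome on both strands. The median share of a coding span found at 1 place was 92.2% for linker, 50.5% for H4, 46.4% for H2B, 36.0% for H3 and 35.9% for H2A genes. A 75-base stretch of the H2A coding spans occurred up to 16 times.

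**Figure D5:**
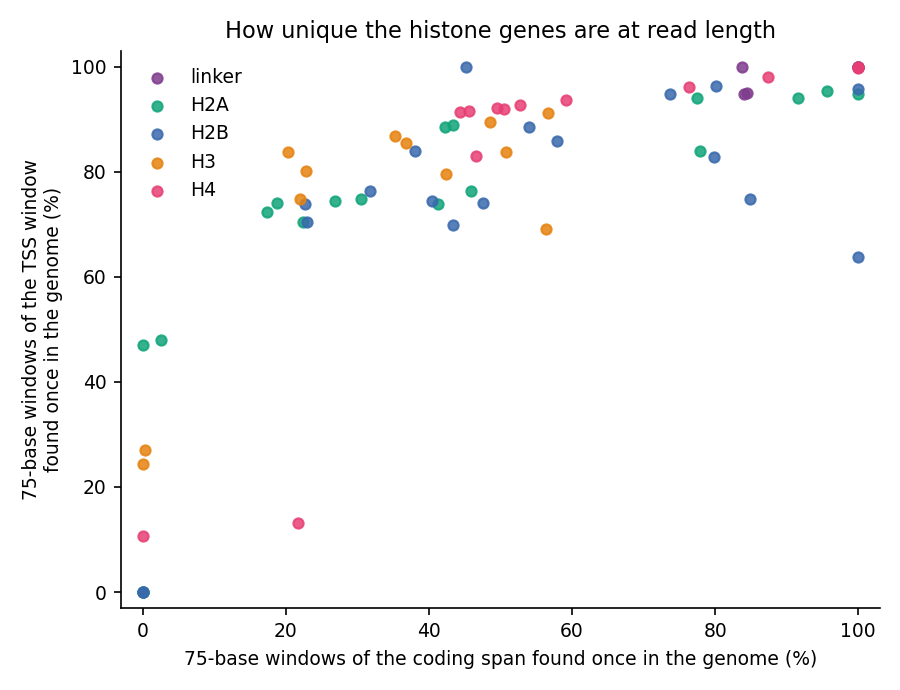
Percent of 75-base stretches of the coding span (horizontal axis) and of the 2 kb TSS window (vertical axis) that occur at 1 place in the genome, with a point per gene coloured by type; some points coincide. Linker genes sit at 83.7% or more on both axes, and 10 genes lie under 50% on the vertical axis.

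In the TSS window, 10 genes had under 50% of such stretches at 1 place. Hist1h2bq, Hist1h2ao, Hist1h2ap and Hist1h2br had 0%, Hist1h4m 10.6%, Hist1h4n 13.2%, Hist2h3c2 24.4%, Hist2h3c1 27.1%, Hist2h2aa1 47% and Hist2h2aa2 48.0%. The first 6 fall in 2 groups that each lie in 1 region of each form. For Hist1h2bq, Hist1h2ao and Hist1h4m the scores were 38.8 (Pol2-S5p) and 170.3 (Pol2-S7p), and for Hist1h4n, Hist1h2ap and Hist1h2br they were 97.3 and 133. Beyond the default settings of the aligner, how reads were shared between these copies is not given in the sources used here, and these values are uncertain. The H3K27me3 region of Hist2h3c2 and Hist2h2aa2 had 19.1% of its stretches at 1 place, and the neighbours Hist2h2aa1 and Hist2h3c1 had no H3K27me3 region. The other narrow H3K27me3 regions had from 56% (Hist1h3i) to 100% (Hist1h1b). Without the 10 genes, H3K27me3 was at 19 of 57 TSS windows (33.3%).

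CpG content overlapped between the states. The observed over expected CpG ratio of the TSS window had a median of 0.741 in Active and 0.769 in PRCa genes, with ranges of 0.415 to 0.926 and 0.577 to 0.943. It was lowest at the annotated TSS of Hist1h1d (0.138), which lies away from the coding span. Linker genes had a median of 0.546 and H3 genes one of 0.831.

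Lists of related genes set these values in context. The 11 replication-independent histone variants all had both polymerase forms at the TSS. H3K27me3 joined them at 7, H1f0, H1fx, H2afz, H2afj, H2afy, H2afy2 and H3f3a, giving 63.6% PRCa (30.8 to 89.1%) beside 31.3% of the replication-dependent genes, with intervals that overlap. H3f3b, which encodes the variant H3.3, was Active with a Pol2-S7p score of 88.3. H2afj shares its regions with its neighbour Hist4h4. Of 25 genes for the synthesis and turnover of histone messages, 20 were Active, among them Npat, the coactivator of histone genes, and Slbp, which binds the stem-loop. The other 5, Lsm11, Ccne2, E2f1, Upf1 and Hinfp, were PRCa.

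Genes that lie between histone genes within the Hist1 parts and the stretch that joins them were mostly in other states. All 36 vomeronasal receptor genes there were Inactive. Of 13 other neighbours, Zfp184, Zfp322a and Abt1 were Active, Pom121l2 and Prss16 were PRCa, Btn1a1, Btn2a2 and Hfe had H3K27me3 only, and 5 were Inactive. The H3K27me3 region over Pom121l2 and Prss16 was 36400 bp (score 13.2) and touched no histone gene.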

How the data were processed

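ChIP-seq reads of 75 bases (single-end) were mapped by the authors to an N-masked mm10 genome with Bowtie2 (2.3.4.3, default settings), and enriched regions were called in each library by BCP, a change-point method, run in its setting for histone marks. The deposited lists give a position, a width in bp and a score per region. The unit of this score is not stated, so scores were used only as ranks and levels within a list. No read counts or sequencing depths were used here.

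Gene models were GENCODE M21. For genes with several transcripts, the start with the longest Pol2-S5p cover in its 2 kb window was used, then that with the longest Pol2-S7p cover, then the longest transcript. A mark was present where a region touched a window or body by at least 1 bp. The members and gene lists were chosen with earlier results of these data known. Any member could be named. Full values were given for those in an uncommon state, with H3K27me3, in the top regions of their type, outside chromosome 13 or used in testis. Loci were split at gaps over 200 kb. The code that finds overlaps was checked on simulated intervals. Calculations used Python 3.11.15, NumPy 2.4.6, SciPy 1.17.1 and Matplotlib 3.10.9. No statistical test was run, since there was 1 library per mark.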

Additional observations from a re-analysis of the deposited data

How the results depend on the processing

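The 9 shares of histone genes with a mark and the shares in the states Active and PRCa were recomputed under 10 other settings. Values stayed inside the 95% interval of the reported share for all of them with scores above the median of each list, with H3K27me3 regions over 10 kb left out, with the outermost ends of the gene record, with any annotated start or end, with windows of 400 bp (not run for the gene body), and without genes of which under 50% of 75-base stretches occur at 1 place. With windows on the start and stop codon, Pol2-S5p rose to 100% at the TSS window, and both forms to 100% at the gene end window. Only 11 genes have a TSS window that overlaps no other; among these the same 3 shares were 100%. With at least 50% of the window or body covered, Pol2-S5p was at 89.6% and Pol2-S7p at 91.0% of gene bodies, and Pol2-S7p at 86.6% of gene end windows. Without regions over 10 kb of all 3 marks, Pol2-S5p was at 86.6% of TSS windows and 88.1% of bodies, Pol2-S7p at 83.6% of TSS windows, 83.6% of bodies and 79.1% of gene end windows, and PRCa fell to 17.9%. H3K27me3 at H4 genes fell from 7.69% to 0% wherever Hist4h4 or its wide region was left out. No paired analysis was possible because there was 1 library per mark.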
